A study of Mus musculus with 6 samples.

Results

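The mitochondrial ribosomal protein genes are the nuclear genes for the protein subunits of the mitochondrial ribosome. They were taken here as every row of the deposited table whose gene name begins with Mrpl or Mrps and a digit. That rule found 78 genes among 57010, of which 49 carry the large subunit name Mrpl and 29 the small subunit name Mrps. A further 6 rows with pseudogene names were left out. All 78 genes passed the filter on low values, which kept 11375 genes with at least 1 TPM (transcripts per 1000000, a level per transcript length) in at least 3 of 6 libraries.

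The libraries were made from gastrocnemius, a calf muscle, of NSG mice, an immunodeficient strain without mature lymphocytes. Every mouse carried a subcutaneous left-flank tumour of the human breast cancer line MDA-MB-231 with knockdown of Rab27a, a GTPase of vesicle secretion. In the 3 radiotherapy libraries the tumour was irradiated locally and once, with 10 Gy, and 3 days passed before the gastrocnemius contralateral to the tumour was collected. The 3 control libraries came from mice with the same tumour and no irradiation, so the knockdown was shared by both groups. The series title concerns a tumour-secreted enzyme and muscle fibrosis after radiotherapy. Muscle from mice without a tumour, or with a tumour that kept Rab27a, was not analysed here, and the animals' age and sex were not given in the labels. The labels do not say that the 3 libraries of a group are separate mice, so each p-value measures only the spread between these samples, which may be technical. The tables hold no read counts, so the depth behind each value is unknown.

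Mitochondria keep their own ribosome, which makes the 13 proteins encoded by the mitochondrial genome, all of them subunits of the respiratory chain or of ATP synthase. Its ribosomal RNAs come from the mitochondrial genome, while every one of its proteins is encoded in the nucleus, made in the cytosol and imported. Some of these proteins have bacterial homologues and others were added in the mitochondrial lineage. Muscle depends on this ribosome for oxidative metabolism. Names and structure differ for a few genes. Mrps30 and Mrps18a carry small subunit names, but their proteins sit in the large subunit, and the protein of Mrps36 is now known as a component of the α-ketoglutarate dehydrogenase complex.

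What the genes share beyond their names was read first from their promoters, because factors such as NRF1, the ETS factor GABP and YY1 are known regulators of nuclear genes for mitochondrial proteins. RefSeq promoters (build GRCm38.p6, 250 bases before to 50 after the gene start) matched 69 of the 78 genes by symbol. These genes had 75 promoters, and a gene with more than 1 was counted once. Mrpl4, Mrpl13, Mrpl15, Mrpl19, Mrpl38, Mrpl54, Mrps28, Mrps34 and Mrps35 had no entry. The ETS core CCGGAAG, searched on both strands, was in a promoter of 26 of the 69 genes (37.7%). It was in 21.3% of the 8478 tested genes with a promoter entry and in 9.93% of all 27025 genes with one. The YY1 core AAGATGGC was in 12 (17.4%), against 5.74% and 3.19%. The NRF1 core GCATGCGC was in 8 (11.6%), against 6.28% and 3.05%, and 7 of these 8 were Mrpl genes. At least 1 of the 3 cores was in 38 of the 69 (55.1%), against 30.1% and 14.9%. These are matches of letters in a window, and binding was not measured. The 3 promoters below are shown because each holds 2 of the cores and belongs to a gene described later. Capitals mark the cores, on either strand, and each sequence reads 5′ to 3′ along the gene.
Mrpl33, chr5:31613701-31614000, plus strand, with an NRF1 core beside an ETS core at the gene start: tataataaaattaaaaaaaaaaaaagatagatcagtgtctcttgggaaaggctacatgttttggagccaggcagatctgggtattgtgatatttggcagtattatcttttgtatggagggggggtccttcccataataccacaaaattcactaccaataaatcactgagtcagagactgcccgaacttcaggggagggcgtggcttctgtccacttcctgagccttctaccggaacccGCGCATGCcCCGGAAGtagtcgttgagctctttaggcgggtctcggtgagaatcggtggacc
Mrps12, chr7:28741772-28742071, minus strand, with a YY1 core upstream and an ETS core at the gene start: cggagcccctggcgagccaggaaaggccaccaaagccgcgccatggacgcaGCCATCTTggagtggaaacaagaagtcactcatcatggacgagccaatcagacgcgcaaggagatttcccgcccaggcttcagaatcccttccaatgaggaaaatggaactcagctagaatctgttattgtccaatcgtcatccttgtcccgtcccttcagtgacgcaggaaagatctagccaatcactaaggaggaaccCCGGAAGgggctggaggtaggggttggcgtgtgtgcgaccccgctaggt
Mrps18a, chr17:46110754-46111053, plus strand, with an ETS core just before and a YY1 core just after the gene start: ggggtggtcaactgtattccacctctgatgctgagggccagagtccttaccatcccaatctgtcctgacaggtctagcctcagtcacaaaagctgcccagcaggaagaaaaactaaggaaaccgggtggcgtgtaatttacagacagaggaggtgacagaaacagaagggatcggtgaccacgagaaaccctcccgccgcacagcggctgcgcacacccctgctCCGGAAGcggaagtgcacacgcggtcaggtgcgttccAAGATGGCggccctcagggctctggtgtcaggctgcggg

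The genes spanned a wide range of levels. Mean TPM over the 6 libraries ran from 2.19 for Mrpl19 to 464 for Mrps21, a 211-fold range, with a median of 43.1 TPM. In 13 genes the mean was at least 100 TPM, in 48 it was from 20 to under 100, and in 17 it was below 20. The 4 highest genes, Mrps21, Mrpl42, Mrpl33 and Mrpl30, held 29.1% of the summed level. Shorter mRNAs tended to be higher, with exceptions such as Mrpl51 (3427 bases, 125 TPM). TPM is itself a level per transcript length, and its part in this relation was not tested. Across the 78 genes, Spearman's rho between mean TPM and the median mRNA length in GENCODE M21 was −0.56, a description across genes that share the same 6 libraries. The median length was 661.5 bases in the 10 highest genes and 2187 bases in the 10 lowest, against 1051.5 bases over all 78.

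**Figure D1:**
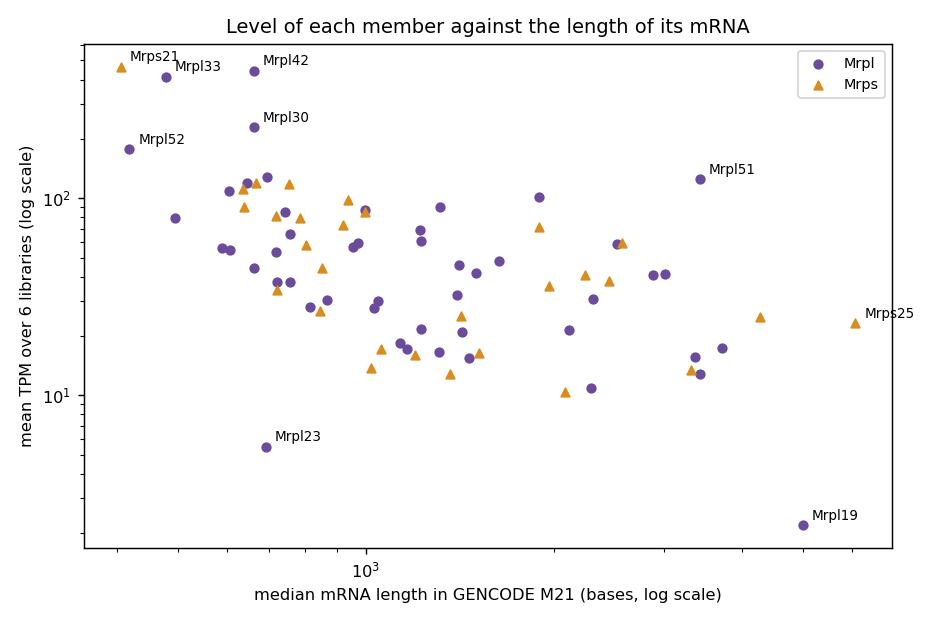
Mean TPM over 6 libraries (vertical, log scale) of each of the 78 genes against its median mRNA length in GENCODE M21 in bases (horizontal, log scale), with Mrpl genes as purple circles and Mrps genes as orange triangles. Levels run from 2.19 to 464 TPM and tend to be lower for longer mRNAs (Spearman's rho −0.56), with Mrpl23, at 5.50 TPM, far below other genes of its length.

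No mitochondrial ribosomal protein gene changed between radiotherapy and control muscle by the test used. With limma on log2(TPM + 1) and Benjamini-Hochberg adjustment over the 11375 genes, 0 of 78 passed 0.05, and the smallest adjusted p was 0.977. The test called 0% of all genes. At an unadjusted limma p under 0.05, 1 gene, Mrpl23, was lower after radiotherapy, where the background was 2.86% of all genes, and 0 were higher, where the background was 0.967%. In 10 of the 78 genes (12.8%) the highest radiotherapy value lay below the lowest control value, against 7.54% of all genes tested. These were Mrpl16, Mrpl23, Mrpl27, Mrpl28, Mrpl37, Mrpl53, Mrps12, Mrps18c, Mrps23 and Mrps28. A filter of 5 TPM in place of 1 TPM kept 6781 genes, and 629 of them were apart in the same direction. The share among genes of like level was not taken. In 0 of the 78 the lowest radiotherapy value lay above the highest control value, against 1.7% of all genes. Where the groups were apart, radiotherapy was thus the lower one in all 10 of these genes and in most genes of the whole table.

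The size of the difference was small for the group as a whole. The log2 fold change, radiotherapy over control, had a median of −0.14 over the 78 genes, with quartiles of −0.26 and −0.05, against −0.11 over all genes tested. It was negative in 64 of the 78 (82.1%), against 67.9% of all genes and 73.7% of the 3544 genes of like level. The median of those genes of like level was −0.17. The 95% interval of the log2 fold change left out both a doubling and a halving for 71 of the 78 genes. In the other 7 (Mrpl9, Mrpl16, Mrpl23, Mrpl44, Mrps12, Mrps23 and Mrps27) it reached −1, and in 0 it reached 1. The median half-width of the interval, which is not adjusted for the number of genes, was 0.55. A change under about that size was not detectable for a typical gene, and the adjusted test needed a larger one. Mrpl23, at −0.92, did not pass it. The 78 genes had a median within-group SD of 0.24 on the log2 scale, against 0.31 over all genes tested. Their median level was also higher, 43.1 TPM against 7.03 TPM, and the SD of genes of like level was not taken.

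The number of negative signs varied with the scaling and with the libraries used. Mitochondrially encoded transcripts took 18.9%, 22.5% and 15.1% of TPM in the radiotherapy libraries, against 10.4%, 13.7% and 8.93% in the controls. TPM is relative, so values were also taken on other scales, and the part of the mitochondrial share in the signs was not tested. After median-of-ratios scaling 49 of 78 genes were negative (median −0.04), after removal of the mitochondrial genome and the 50 most abundant genes 47 were (median −0.03), and after quantile normalization 36 were (median 0.03). The median of all genes was −0.04, −0.02 and −0.01 under these 3 scalings. Leaving out 1 library at a time gave from 48 negative genes (61.5%), without control 3, to 73 (93.6%), without control 2. Of all genes, 66.4% were negative without control 3 and 67.9% without control 2. Most of the 78 thus stayed negative on leaving out any 1 library. With radiotherapy 2 and control 3 both left out, 37 of 78 (47.4%) were negative and the median was 0.01. All genes tested then gave 49.2% negative and a median of 0.0045.

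**Figure D2:**
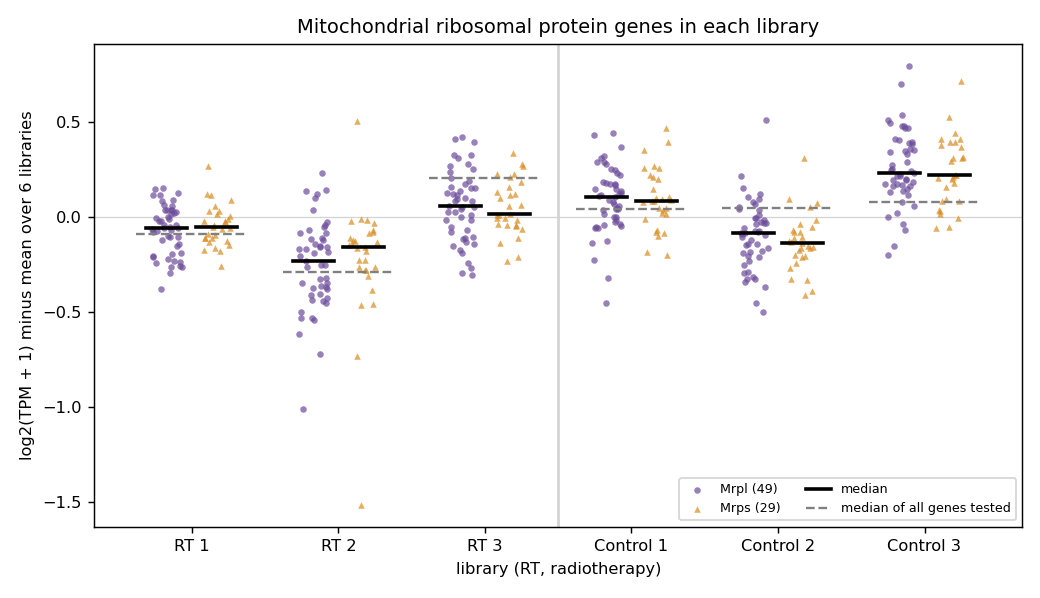
Deviation of log2(TPM + 1) from its mean over the 6 libraries for each of the 49 Mrpl (purple circles) and 29 Mrps genes (orange triangles), by library, with the median of each set (black bar) and of all genes tested (dashed grey). On this TPM scale the medians of both sets are lowest in radiotherapy 2, where the median of all genes is also lowest, and highest in control 3; after median-of-ratios scaling both are lowest in radiotherapy 3 (Mrpl −0.21, Mrps −0.25).

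The libraries of one group differed as much as the groups did. Control 3 gave the highest value of 49 of the 78 genes (62.8%), against 25.1% of all genes tested, and the lowest of 0. Radiotherapy 2 gave the lowest value of 39 genes (50.0%), close to the 52.9% of all genes for which it was lowest on the TPM scale. That count turned with scaling. After median-of-ratios scaling radiotherapy 2 was lowest for 9 genes (11.5%) and highest for 22 (28.2%), against 23.1% and 16.4% of all genes. With the mitochondrial and 50 most abundant genes removed it was lowest for 26 (33.3%), against 39.7% of all genes. Control 2 was lowest for 24 genes (30.8%), against 10.5% of all genes. After median-of-ratios scaling control 3 was highest for 42 genes (53.8%), against 29.6% of all genes. Control 2 and radiotherapy 3 were then each lowest for 31 (39.7%), against 16.3% and 18.4% of all genes. On the TPM scale, median deviations from the 6-library mean were −0.05, −0.19 and 0.06 (log2) in the radiotherapy libraries, against 0.09, −0.11 and 0.22 in the controls. The same medians over all genes tested were −0.09, −0.29 and 0.20 after radiotherapy, against 0.04, 0.05 and 0.08 in controls. After median-of-ratios scaling the medians of the 78 genes were 0.04, 0.11 and −0.21 after radiotherapy, against 0.03, −0.17 and 0.21 in controls. All 3 radiotherapy libraries thus turned in sign. After removal of the mitochondrial and most abundant genes they were 0.09, −0.07 and −0.05 after radiotherapy, against 0.01, −0.07 and 0.10 in controls. Control 3 lay above control 2 in the median of these 78 genes on all 3 scales.

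Summed over genes, large subunit names reached 3311, 3085 and 3316 TPM in the radiotherapy libraries, against 3682, 3124 and 4086 TPM in the controls. Small subunit names summed to 1907, 1669 and 1895 TPM after radiotherapy, against 2067, 1698 and 2167 TPM in controls. In both sums the lowest control lay below the highest radiotherapy library, and the groups overlapped. All 78 together gave 5061 ± 266 TPM after radiotherapy and 5608 ± 726 TPM in controls (SD, n = 3 each), a ratio of 0.902. Taken per 1000 TPM found outside the mitochondrial genome, the sum was 6.24 ± 0.170 after radiotherapy and 6.29 ± 0.649 in controls (SD, n = 3 each), a ratio of 0.992. The difference was smaller than the spread between control libraries on either scale.

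The balance of large and small subunit genes overlapped between groups by each measure taken. The ratio of summed Mrpl to summed Mrps TPM was 1.74, 1.85 and 1.75 in the radiotherapy libraries, against 1.78, 1.84 and 1.89 in the controls. These ranges overlapped, and the means of 1.78 ± 0.0611 after radiotherapy and 1.84 ± 0.0524 in controls (SD, n = 3 each) were about 1 SD apart. Sorting genes by their place in the ribosome gave 2.11 ± 0.0740 after radiotherapy and 2.19 ± 0.0885 in controls (SD, n = 3 each), again with overlap. The difference of the Mrpl and Mrps medians of log2(TPM + 1) was 0.14, −0.06 and 0.03 in the radiotherapy libraries, against 0.05, 0.19 and 0.30 in the controls. These values overlapped too, but their means differed by −0.15 (radiotherapy minus control), more than the between-replicate SD of 0.11. The median log2 fold change was −0.15 for the 49 Mrpl genes, of which 40 were negative, and −0.13 for the 29 Mrps genes, of which 24 were negative. The groups were apart, with radiotherapy lower, in 6 of the 49 Mrpl (12.2%) and 4 of the 29 Mrps genes (13.8%), against 7.54% of all genes tested. Genes classed as having a bacterial homologue (46) had a median of −0.16, against −0.11 for all genes tested. Those classed as mitochondrial only (31) had one of −0.12. The 31 include Mrps18a and Mrps18b, which are relatives of bacterial S18.

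**Figure D3:**
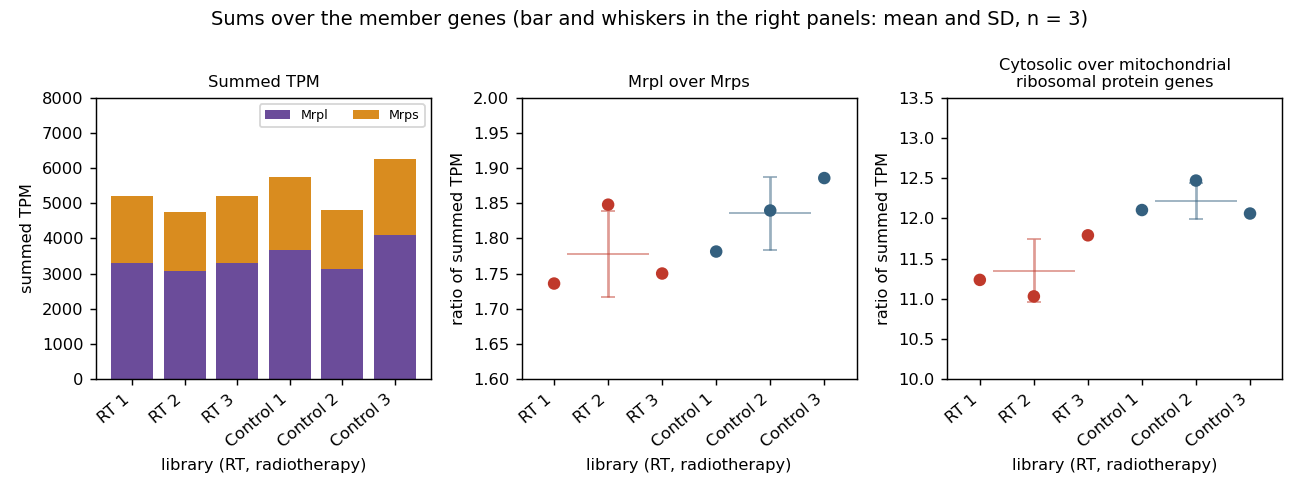
Summed TPM of Mrpl and Mrps genes (left, stacked bars), the ratio of the Mrpl to the Mrps sum (middle) and the ratio of summed cytosolic to summed mitochondrial ribosomal protein TPM (right) in each library, with mean and SD (n = 3) in the middle and right panels, whose axes do not start at 0. The Mrpl over Mrps ratio overlaps between groups, while the cytosolic over mitochondrial ratio is 11.0 to 11.8 after radiotherapy and 12.1 to 12.5 in controls.

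Among large subunit genes, the 4 of highest level showed how wide the control range was. Mrpl42, a mitochondria-specific subunit, had 467, 380 and 358 TPM after radiotherapy, against 486, 414 and 557 TPM in controls. Mrpl33, a small protein with a bacterial homologue whose promoter is printed above, had 382, 483 and 342 TPM after radiotherapy, against 433, 363 and 482 TPM in controls. In both genes the groups overlapped, and the log2 fold changes were −0.27 (SE 0.21) and −0.09 (SE 0.22). Mrpl30 had 236, 233 and 184 TPM after radiotherapy, against 234, 199 and 290 TPM in controls. Mrpl52 was the steadiest, with 161, 162 and 162 TPM after radiotherapy, against 220, 159 and 198 TPM in controls. Its control 2 value lay below all 3 radiotherapy values. The log2 fold changes of Mrpl30 and Mrpl52 were −0.14 (SE 0.23) and −0.23 (SE 0.21).

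The stalk of the large subunit recruits translation factors, and its genes were Mrpl10, Mrpl11 and Mrpl12. Mrpl12, the stalk protein itself, had 89.8, 70.4 and 80.3 TPM after radiotherapy, against 86.2, 86.6 and 126 TPM in controls. Control 3 stood above the other 5 libraries, and the log2 fold change without it was −0.11. Mrpl11, at the stalk base, had 35.3, 32.5 and 47.8 TPM after radiotherapy, against 53.3, 41.7 and 55.0 TPM in controls. Mrpl10, which anchors the stalk, had 19.3, 19.7 and 26.8 TPM after radiotherapy, against 23.5, 16.9 and 23.6 TPM in controls. The log2 fold changes were −0.29 (SE 0.24), −0.38 (SE 0.25) and 0.04 (SE 0.25) for Mrpl12, Mrpl11 and Mrpl10, and all 3 genes overlapped between groups.

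Genes near the exit of the nascent chain and the catalytic centre gave mixed signs. Mrpl45, which holds the ribosome to the inner membrane, had 15.7, 12.7 and 15.8 TPM after radiotherapy, against 15.3, 13.4 and 19.8 TPM in controls. Mrpl24, a protein of the exit tunnel, had 62.0, 59.3 and 69.1 TPM after radiotherapy, against 59.5, 50.6 and 63.9 TPM in controls. Mrpl47 had 12.7, 17.1 and 20.6 TPM after radiotherapy, against 14.8, 15.1 and 13.3 TPM in controls. Its radiotherapy libraries spanned more than its controls did, and the groups overlapped, as in Mrpl45 and Mrpl24. Log2 fold changes were −0.12 (SE 0.25) for Mrpl45, 0.13 (SE 0.22) for Mrpl24 and 0.19 (SE 0.25) for Mrpl47. Mrpl3, a core protein whose human gene is mutated in a mitochondrial cardiomyopathy, had 26.1, 23.3 and 33.7 TPM after radiotherapy, against 29.04, 30.1 and 42.2 TPM in controls (log2 fold change −0.27, SE 0.26).

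Mrpl16, a core protein near the tRNA sites, had 16.0, 9.78 and 16.6 TPM after radiotherapy, against 19.1, 19.6 and 22.4 TPM in controls. All radiotherapy values were the lower ones, and radiotherapy 2 was the lowest by far. The log2 fold change was −0.53 (SE 0.26; adjusted p = 0.977, limma), and −0.30 without radiotherapy 2. Mrpl28 had 29.8, 21.8 and 27.7 TPM after radiotherapy, against 36.7, 31.0 and 34.4 TPM in controls. Mrpl37, a mitochondria-specific subunit, had 42.2, 28.1 and 37.3 TPM after radiotherapy, against 44.2, 42.3 and 57.6 TPM in controls. In Mrpl28 and Mrpl37 the groups did not overlap, by 1.22 TPM in Mrpl28 and by 0.150 TPM in Mrpl37. Their log2 fold changes were −0.36 (SE 0.23) and −0.42 (SE 0.25), and neither passed the test (limma, adjusted p = 0.977 for both). Without radiotherapy 2 they were −0.23 for Mrpl28 and −0.26 for Mrpl37.

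Some large subunit proteins have a second known role or an unusual fold. Mrpl44, related to ribonuclease III, had 19.9, 12.9 and 20.2 TPM after radiotherapy, against 18.3, 21.2 and 33.4 TPM in controls. Radiotherapy 2 was its lowest library and control 3 its highest, and the groups overlapped (log2 fold change −0.42, SE 0.30, and −0.18 without control 3). Mrpl41, which in human cells was also described as a partner of p53 and BCL2, had 45.8, 59.0 and 73.0 TPM after radiotherapy, against 43.2, 39.4 and 75.4 TPM in controls. Mrpl58, a peptidyl-tRNA hydrolase that frees stalled ribosomes, had 64.2, 56.2 and 60.0 TPM after radiotherapy, against 60.2, 40.7 and 70.3 TPM in controls. In both, the controls spanned the whole radiotherapy range, with log2 fold changes of 0.20 (SE 0.31) for Mrpl41 and 0.11 (SE 0.26) for Mrpl58.

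Mrpl23, a protein at the rim of the exit tunnel, had the smallest unadjusted p of the 78 genes, and its values are uncertain. It had 3.68, 2.03 and 5.13 TPM after radiotherapy, against 6.88, 7.68 and 7.59 TPM in controls. All radiotherapy values lay below the controls, with a log2 fold change of −0.92 (SE 0.29; unadjusted p = 0.011, adjusted p = 0.977, limma). Its pseudogene Mrpl23-ps1, a copy without introns on another chromosome, was listed at 206, 189 and 213 TPM after radiotherapy, against 233, 196 and 250 TPM in controls. In the GENCODE M21 transcripts, all 438 coding bases of 1 Mrpl23 mRNA are identical to the pseudogene's transcript. The first 60 coding bases of Mrpl23 (chromosome 7) and the matching stretch of Mrpl23-ps1 (chromosome 2) are printed to show that a read from here cannot tell them apart, and no capitals are used since no base differs.
Mrpl23: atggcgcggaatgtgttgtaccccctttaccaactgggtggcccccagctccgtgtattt
Mrpl23-ps1: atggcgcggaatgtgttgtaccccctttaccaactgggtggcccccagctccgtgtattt

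Summed over the gene and its copy, the level was 210 TPM in radiotherapy 1, 191 TPM in radiotherapy 2 and 218 TPM in radiotherapy 3, against 239, 204 and 257 TPM in the controls. The summed groups overlapped, and in a fit with both rows added into 1 the log2 fold change was −0.17 (SE 0.21; adjusted p = 0.979, limma). Mrpl23 itself was 1.72 ± 0.648% of that sum after radiotherapy and 3.19 ± 0.494% in controls (SD, n = 3 each). How the reads were divided between the copies is not given in the sources used here. Counted as a sum, Mrpl23 would stand beside the high genes of its length rather than near the bottom of the list.

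**Figure D4:**
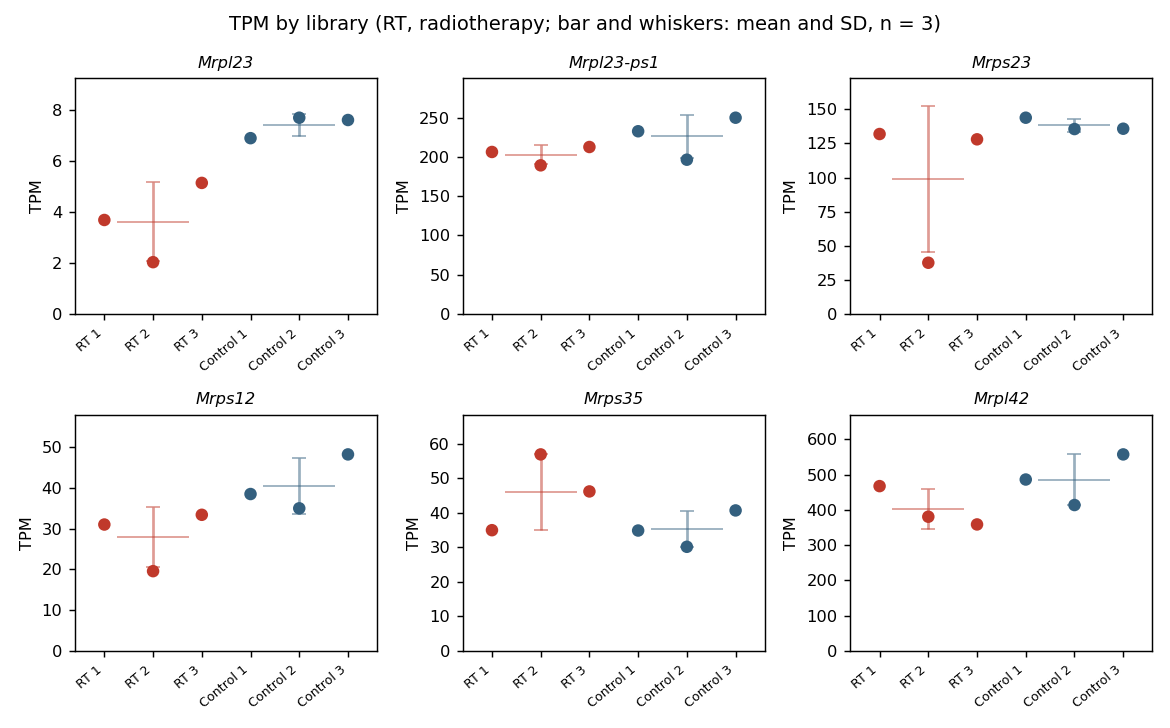
TPM of Mrpl23, its pseudogene Mrpl23-ps1, Mrps23, Mrps12, Mrps35 and Mrpl42 in each library (RT, radiotherapy, left; control, right), with mean and SD (n = 3 each). Mrpl23 is 2.03 to 5.13 TPM after radiotherapy and 6.88 to 7.68 TPM in controls while Mrpl23-ps1 is 189 to 250 TPM throughout, and Mrps23 is low in radiotherapy 2 alone (37.6 TPM).

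Shared sequence bears on a few other genes. In the GENCODE M21 transcripts, 42 of the 78 genes had 5% or less of their 50-base words in any other gene, and 28 had none. More than 50% were shared in 5 genes, namely Mrpl53 (100%, with the overlapping Gm42688), Mrps25 (73.9%, with Nr2c2), Mrps18b (56.0%, with Gm16279), Mrps34 (52.4%, with Mapk8ip3) and Mrpl23 (51.7%). The values of Mrpl53 and Mrpl23, which share on the same strand, are uncertain for that reason. In Mrps25, Mrps18b and Mrps34 the named gene is on the opposite strand. Their values are uncertain for that reason if the libraries did not keep strand, which is not known. A pseudogene shared at least 1 such word with 31 genes. Pseudogenes that did so summed to over 10% of the gene's own TPM in 4, Mrpl23, Mrpl48, Mrpl51 and Mrps26. Mrpl48 averaged 30.6 TPM and the 1 pseudogene that shared words with it 7.59 TPM. Mrps26 averaged 24.8 TPM and the 2 that shared words with it 57.0 TPM, but only 5.37% of its words were in any other gene.

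Among genes with small subunit names, Mrps21 was the highest of all 78. It had 499.5, 451.5 and 441.8 TPM after radiotherapy, against 492.7, 367.8 and 529.5 TPM in controls. The groups overlapped almost fully (log2 fold change 0.02, SE 0.21). Mrps36, the dehydrogenase component named above, had 117, 104 and 95.2 TPM after radiotherapy, against 122, 99.4 and 127 TPM in controls (log2 fold change −0.14, SE 0.22).

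Mrps23, a mitochondria-specific subunit, had 131.9, 37.6 and 128.0 TPM after radiotherapy, against 143.9, 135.6 and 135.8 TPM in controls. The groups did not overlap, but the low mean rested on radiotherapy 2, where the gene stood at 29.4% of its next lowest value. Its log2 fold change was −0.68 (SE 0.44; adjusted p = 0.977, limma) with all libraries and −0.09 (SE 0.18; adjusted p = 1.00, limma) without radiotherapy 2. Mrps23 had the largest within-group SD of the 78 genes, 0.72 on the log2 scale, and shared 0% of its 50-base words with other genes.

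Log2 fold changes of the small subunit genes Mrps12, Mrps5 and Mrps16 lay on both sides of 0. Mrps12, which monitors codon and anticodon pairing and whose promoter is printed above, had 31.0, 19.6 and 33.4 TPM after radiotherapy, against 38.5, 34.98 and 48.2 TPM in controls. The groups were apart, by 1.59 TPM at the closest, with radiotherapy 2 the lowest and control 3 the highest. The log2 fold change was −0.54 (SE 0.28; adjusted p = 0.977, limma), and −0.31 without radiotherapy 2. Mrps5, at the mRNA entrance and important for accuracy, had 37.4, 34.3 and 45.9 TPM after radiotherapy, against 32.9, 34.4 and 44.3 TPM in controls (log2 fold change 0.07, SE 0.24). Mrps16, a core assembly protein, had 52.3, 58.5 and 57.4 TPM after radiotherapy, against 71.6, 56.0 and 60.8 TPM in controls (log2 fold change −0.16, SE 0.22). Mrps5 and Mrps16 overlapped between groups.

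The 3 mammalian relatives of bacterial S18 occupy different sites. Mrps18c had 92.5, 79.8 and 83.4 TPM after radiotherapy, against 97.1, 93.6 and 96.6 TPM in controls. These groups were apart by 1.10 TPM, with a log2 fold change of −0.17 (SE 0.21), and its 95% interval crossed 0. Mrps18b had 52.6, 46.6 and 69.1 TPM after radiotherapy, against 56.5, 44.9 and 77.5 TPM in controls (log2 fold change −0.07, SE 0.28). Mrps18a, placed in the large subunit, had 109.6, 97.0 and 121 TPM after radiotherapy, against 120.4, 104 and 155 TPM in controls (log2 fold change −0.20, SE 0.24). Mrps18a and Mrps18b overlapped, and in both control 3 was the highest library.

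Mrps35 had the largest positive value of the 78 genes. It had 34.98, 57.0 and 46.2 TPM after radiotherapy, against 34.9, 30.2 and 40.7 TPM in controls. Radiotherapy 2, the lowest library of 39 other genes, was the highest here, and the groups overlapped (log2 fold change 0.36, SE 0.26; adjusted p = 0.977, limma). Without radiotherapy 2 it was 0.20. Mrps22, whose human gene is mutated in a mitochondrial disease, had 15.2, 14.6 and 16.0 TPM after radiotherapy, against 16.5, 13.99 and 19.7 TPM in controls (log2 fold change −0.11, SE 0.23). Mrps34, needed for small subunit stability in mice, had 75.5, 58.3 and 80.8 TPM after radiotherapy, against 76.8, 62.5 and 84.0 TPM in controls (log2 fold change −0.06, SE 0.24). Mrps30, placed in the large subunit, had 11.8, 11.9 and 14.5 TPM after radiotherapy, against 12.6, 11.8 and 18.0 TPM in controls (log2 fold change −0.12, SE 0.25). None of these 4 genes separated the groups.

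**Figure D5:**
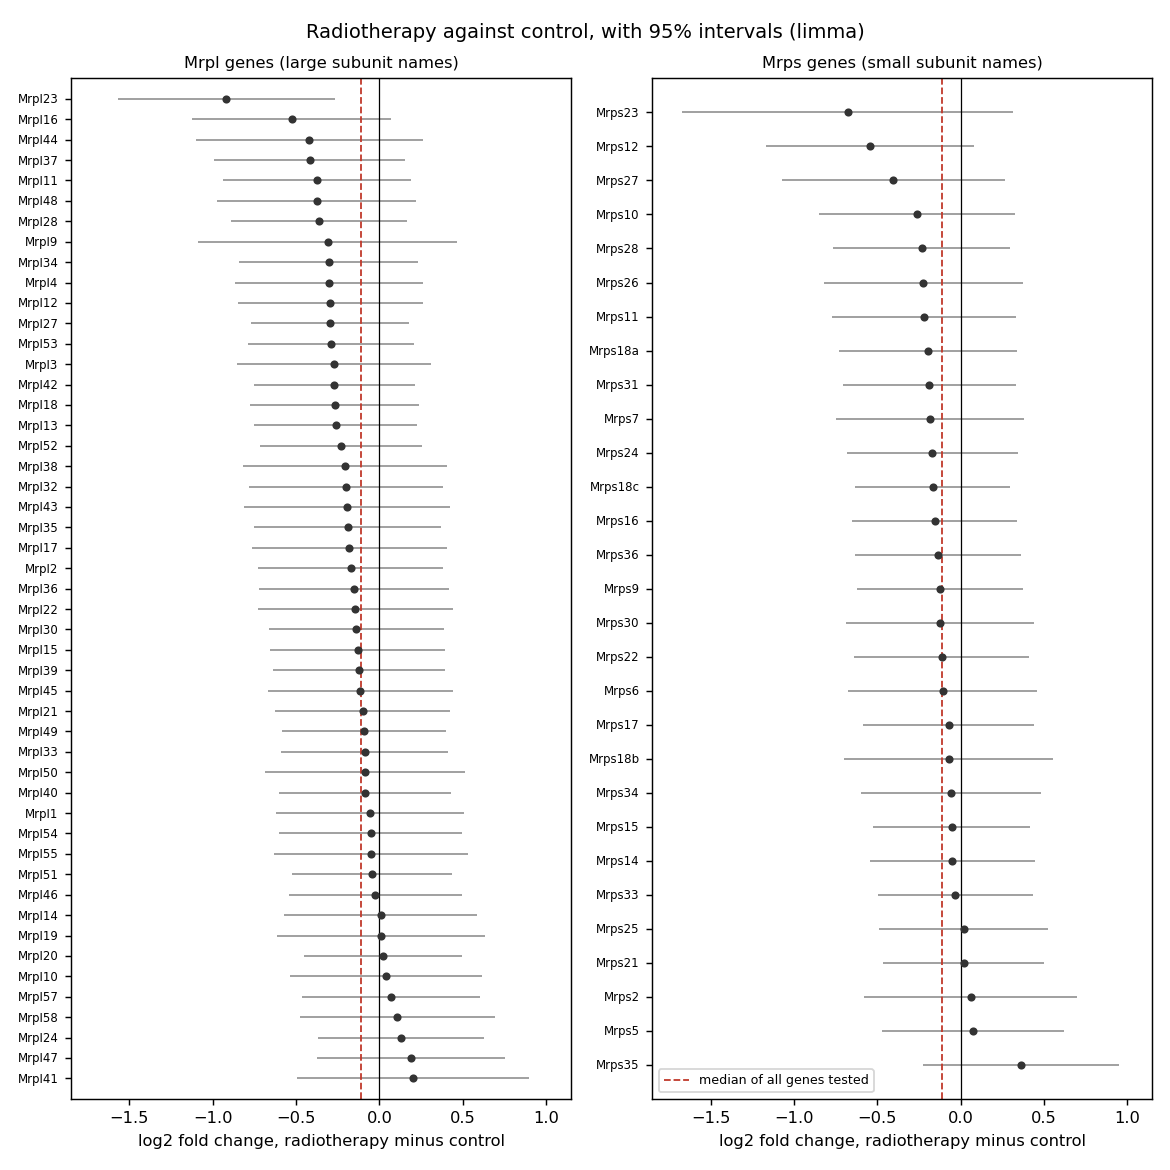
Log2 fold change, radiotherapy over control, with its 95% limma interval for the 49 Mrpl genes (left) and 29 Mrps genes (right), ordered by value, with the median of all genes tested dashed. Intervals cross 0 for all genes but Mrpl23, and 64 of 78 points lie below 0.

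Subunits of the mitochondrial ribosome without a ribosomal protein name had values of both signs. Chchd1, a small subunit protein, had 226, 198 and 197 TPM after radiotherapy, against 264, 233 and 291 TPM in controls, with no overlap (log2 fold change −0.34, SE 0.21). Dap3, a small subunit GTP-binding protein also known from apoptosis studies, had 64.4, 63.1 and 68.2 TPM after radiotherapy, against 55.2, 54.9 and 59.6 TPM in controls. Dap3 was the opposite case, with all radiotherapy values above the controls (log2 fold change 0.20, SE 0.21). Neither passed the test (limma, adjusted p = 0.977 for both), and the other 3 measured subunits, Ptcd3, Aurkaip1 and Gadd45gip1, overlapped.

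The rest of the mitochondrial translation system held no gene past the test either. Among 30 assembly factors and rRNA modifiers, 0 passed the test in either direction, with a median log2 fold change of −0.13. Among 14 translation factors, 0 passed, with a median of −0.18. Tufm, the elongation factor that brings aminoacyl-tRNA, had 74.7, 51.0 and 73.2 TPM after radiotherapy, against 67.2, 70.7 and 107 TPM in controls. Of 20 mitochondrial aminoacyl-tRNA synthetase and amidotransferase genes, 18 were tested and 0 passed, with a median of −0.10. All medians stood beside −0.11 for all genes tested.

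The transcripts that this ribosome translates had positive values. The 13 mitochondrially encoded mRNAs had a median log2 fold change of 0.82, and 0 passed the test over all genes (limma). At an unadjusted limma p under 0.05, 12 of the 13 were higher after radiotherapy, against 0.967% of all genes tested. Their summed TPM over that of the 78 ribosomal protein genes, a ratio that scaling does not touch, was 35.8, 46.7 and 28.3 after radiotherapy, against 17.5, 27.7 and 13.9 in controls. The lowest radiotherapy library stood just above the highest control. Reads of mt-Atp8 cannot be divided with certainty from those of mt-Atp6, which it overlaps, and without mt-Atp8 the ratio was 19.5, 27.3 and 15.8 after radiotherapy, against 11.2, 15.0 and 8.81 in controls. The 2 mitochondrial ribosomal RNAs, the ribosome's own RNA parts, summed to 1872, 3327 and 3830 TPM after radiotherapy, against 2898, 3224 and 2171 TPM in controls, with overlap. The summed TPM of 44 nuclear subunits of the respiratory chain and ATP synthase overlapped between groups relative to the ribosomal protein genes, at 6.25, 6.91 and 5.48 times their sum after radiotherapy, against 5.88, 6.47 and 5.69 times in controls.

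Cytosolic ribosomal protein genes were set beside the mitochondrial ones. Of 83 tested, 0 passed the test in either direction (limma), their median log2 fold change was −0.21, and 21 had all radiotherapy values below all controls, against 10 of the 78 mitochondrial genes and 7.54% of all genes tested. The ratio of summed cytosolic to summed mitochondrial ribosomal protein TPM was 11.2, 11.0 and 11.8 after radiotherapy, against 12.1, 12.5 and 12.1 in controls. All radiotherapy ratios were lower, at a mean of 11.4 ± 0.393 after radiotherapy and 12.2 ± 0.225 in controls (SD, n = 3 each). Cytosolic ribosomal protein genes are known for their many processed pseudogenes, and sequence shared with those was not measured here.

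The tissue label was checked with marker lists. All 8 skeletal muscle fibre markers were present, and their sum was 109220, 66135 and 107501 TPM after radiotherapy, against 138034, 131851 and 131794 TPM in controls. The sum was lower in all 3 radiotherapy libraries, lowest in radiotherapy 2, and rests mainly on the most abundant markers. In 6 of the 8 the groups were apart with radiotherapy lower, Tnni2 overlapped, and the fast myosin Myh1 had a log2 fold change of 0.54 (SE 0.39) with its highest value in radiotherapy 2. All 5 red blood cell markers had all radiotherapy values below all controls, a pattern of 7.54% of all genes tested, with a sum of 930 to 1618 TPM after radiotherapy and 3352 to 7203 TPM in controls. Leukocyte markers summed to 156 to 748 TPM after radiotherapy and 279 to 1759 TPM in controls. Fibro-adipogenic progenitor markers summed to 390 to 542 TPM after radiotherapy and 373 to 863 TPM in controls, and endothelial markers to 143 to 216 TPM after radiotherapy and 118 to 198 TPM in controls. Adipocyte markers summed to 587 to 2345 TPM after radiotherapy and 266 to 886 TPM in controls, and Schwann cell markers to 31.8 to 592 TPM after radiotherapy and 32.6 to 109 TPM in controls. No marker was listed at 0 in all 6 libraries. In bulk tissue, fewer cells of a type and less RNA per cell cannot be told apart, and the part of these markers in the values of the ribosomal protein genes was not tested.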

How the data were processed

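RNA sequencing libraries were made with a TruSeq RNA kit from 1 μg of total RNA, per the labels' protocols. The authors deposited TPM values, with 1 column per sample; HISAT2, StringTie, RSEM and build mm9 are named without roles or versions, per the submitters' processing notes. Each deposited TPM column summed to 1000000 within 1, so depth is lost and values are relative. Strand use of the libraries and the annotation were not given in the sources used here. The only coordinates printed are those of the promoters above, which are in build GRCm38.p6 and not mm9. Here log2(TPM + 1) was tested with limma 3.58.1 (R 4.3.3, with trend, two-sided) over 11375 genes, and fold changes are on that scale, which understates low genes. The test was checked on simulated data. Genes named are the 6 of smallest p in each direction, the 4 highest per subunit name and a panel with known roles. The genes and lists were chosen with earlier results of these data known. Alternatives were pseudocounts, filters, scalings, variance settings, a replicate block and left-out libraries. At most 3.35% of values were identical between 2 libraries. No label says that the replicate numbers pair the samples, so they were not treated as pairs. Deviations of same-numbered libraries had r of −0.06, 0.02 and −0.11, and those of other pairs −0.13 to 0.17. With groups this small these correlations cannot decide whether samples were paired.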

Additional observations from a re-analysis of the deposited data

How the results depend on the processing

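Under every one of the 16 alternatives run, 0 of the 78 genes passed the test. Over all genes, 0 passed in the main analysis, and leaving out 1 library gave 0 to 1 calls: Gm24497 without radiotherapy 1 and Gm55635 without control 1. With radiotherapy 2 and control 3 both left out, chosen after seeing the data, 1 gene, Gm26447, passed. These 3 were named after their values were seen, and the cause was not tested. The fit with the replicate number as a block called 0 genes. At an unadjusted p under 0.05, that block gave 112 higher and 291 lower genes, against 110 and 325 without it. The Mrpl median moved to 0.0080 with both libraries out, and the Mrps median to 0.041 with quantile normalization. Radiotherapy minus control, the difference of the Mrpl and Mrps medians of log2(TPM + 1) changed by −0.15. The ratio of sums differed by −0.058, but it is not on a log scale, so these sizes cannot be compared. Of 497 values for 31 named genes, 458 kept their sign. Signs turned under quantile normalization for Mrpl33 (0.048), Mrpl45 (0.044), Mrps16 (0.035), Mrps18b (0.11), Mrps22 (0.047), Mrps30 (0.041), Mrps34 (0.11) and Mrps36 (0.013). Median-of-ratios scaling gave 0.010 for Mrpl33, 0.026 for Mrps18b and 0.038 for Mrps34, and removal of the mitochondrial and 50 most abundant genes gave 0.026, 0.042 and 0.054 for the same genes. With radiotherapy 2 and control 3 out, Mrpl3 gave 0.0061, Mrpl44 0.024, Mrpl45 0.13, Mrps18a 0.044, Mrps18b 0.26, Mrps22 0.038, Mrps30 0.092 and Mrps34 0.17. Leaving out 1 library at a time gave −0.11 to 0.12 for Mrpl10, −0.27 to 0.0039 for Mrpl30, −0.23 to 0.022 for Mrpl33, −0.23 to 0.032 for Mrpl45, −0.11 to 0.27 for Mrpl58, −0.043 to 0.20 for Mrps5, −0.25 to 0.13 for Mrps18b, −0.14 to 0.12 for Mrps21, −0.23 to 0.0067 for Mrps22, −0.23 to 0.050 for Mrps30 and −0.18 to 0.079 for Mrps34. The cause of these turns was not tested. Depth is unknown, so no counting error can be given.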
